A study of Homo sapiens with 7 samples.

Results

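The peaks of 6 ChIP-seq lists on chromosome 11 of T-47D cells were examined along the length of the chromosome. T-47D is a luminal breast cancer cell line. Histone-bound DNA from sonicated nuclei had been precipitated with antibodies against H3K27ac, H3K4me2, H3K36me3, H3K27me3, H2A.Z or H3K9me3 and sequenced, with 1 library per mark. The cells were untreated as far as the labels say and were grown in DMEM with 10% serum. The members were all peaks of the 6 lists on chromosome 11 in the build hg19, 22484 of the 285703 peaks on chromosomes 1 to 22 and X. They were counted in 1 Mb bins and compared below and above 19 Mb, on the short (p) and long (q) arm, and in a pair of spans named for olfactory receptor genes, from 4.4 to 6.2 Mb on the p arm and from base 55000001 to base 59300000 on the q arm.

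By way of background, enhancers and promoters in use carry H3K4me2 and H3K27ac, while H3K36me3 is laid down over the bodies of transcribed genes. H3K27me3 is the mark of Polycomb repression and often lies in broad domains over silent developmental genes. H3K9me3 is a mark of heterochromatin, common near centromeres and over repeats, and H2A.Z is a variant histone best known from the nucleosomes beside active promoters. Olfactory receptor genes are mostly silent outside the nose, sit in large clusters, and are numerous on chromosome 11. In the RefSeq annotation of GRCh38.p14, 171 of 392 protein-coding olfactory receptor genes (43.6%) were on chromosome 11, and 149 of the 171 lay in 12 blocks of 5 or more neighbouring olfactory receptor genes. That annotation is of another build than the peaks, so no gene was assigned to a peak or to the 2 spans.

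A pair of the lists did not behave as this background describes their labels, on chromosome 11 or elsewhere. Of 6090 labelled H2A.Z peaks, 1 overlapped an H3K27ac peak (0.0460% of that list over chromosomes 1 to 22 and X), 20 overlapped an H3K4me2 peak (0.305% over the same chromosomes) and 857 overlapped an H3K27me3 peak (14.1%, against 14.8% over the same chromosomes). Of 2063 labelled H3K9me3 peaks, 357 overlapped H3K27ac (17.3%, against 30.4% over the same chromosomes) and 464 overlapped H3K4me2 (22.5%, against 35.3%), so these overlaps were less frequent on chromosome 11 than in the list as a whole. The 2 lists are therefore called the lists labelled H2A.Z and H3K9me3 throughout, and what is said of them holds for the lists under those labels.

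The deposited lists give positions only, so a peak has a place and a width but no height, and the read depth of the libraries is not given in the sources used here. Numbers of peaks in different lists are therefore not amounts of the marks. No correction for copy number was made, and its part in differences of density between segments or chromosomes was not tested. With 1 library per mark there was no replicate, and no test between conditions could be made. The 95% intervals below (exact Poisson for peaks per Mb, exact conditional for ratios of densities, Wilson for shares) cover counting error only. They treat peaks as independent and are too narrow because peaks cluster, so the spread over 1 Mb bins is given beside them.

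Chromosome 11 held more peaks per Mb than the other chromosomes in all 6 lists, and the excess was largest for the list labelled H2A.Z. The chromosome made up 4.75% of the analysed span, yet it carried 11.7% of the peaks labelled H2A.Z, 10.1% of those labelled H3K9me3 and 8.50% of those of H3K27me3. The list labelled H2A.Z had 46.2 peaks per Mb on chromosome 11, against 17.4 per Mb on the other chromosomes, a ratio of 2.65 (2.58 to 2.72). The list labelled H3K9me3 had 15.7 against 6.96 per Mb, a ratio of 2.25 (2.15 to 2.36). H3K27me3 had 41.6 against 22.3 per Mb, a ratio of 1.86 (1.81 to 1.91).

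The marks of promoters, enhancers and transcribed genes were less raised on the chromosome. The ratios were 1.38 (1.32 to 1.45) for H3K27ac, 1.32 (1.28 to 1.37) for H3K4me2 and 1.14 (1.10 to 1.18) for H3K36me3. In density, chromosome 11 ranked first of 23 chromosomes for the list labelled H3K9me3, second for the list labelled H2A.Z, just under the 46.7 peaks per Mb of chromosome 20, and at place 4 for H3K27me3. For the other lists it stood at places 6 to 9.

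**Figure D1:**
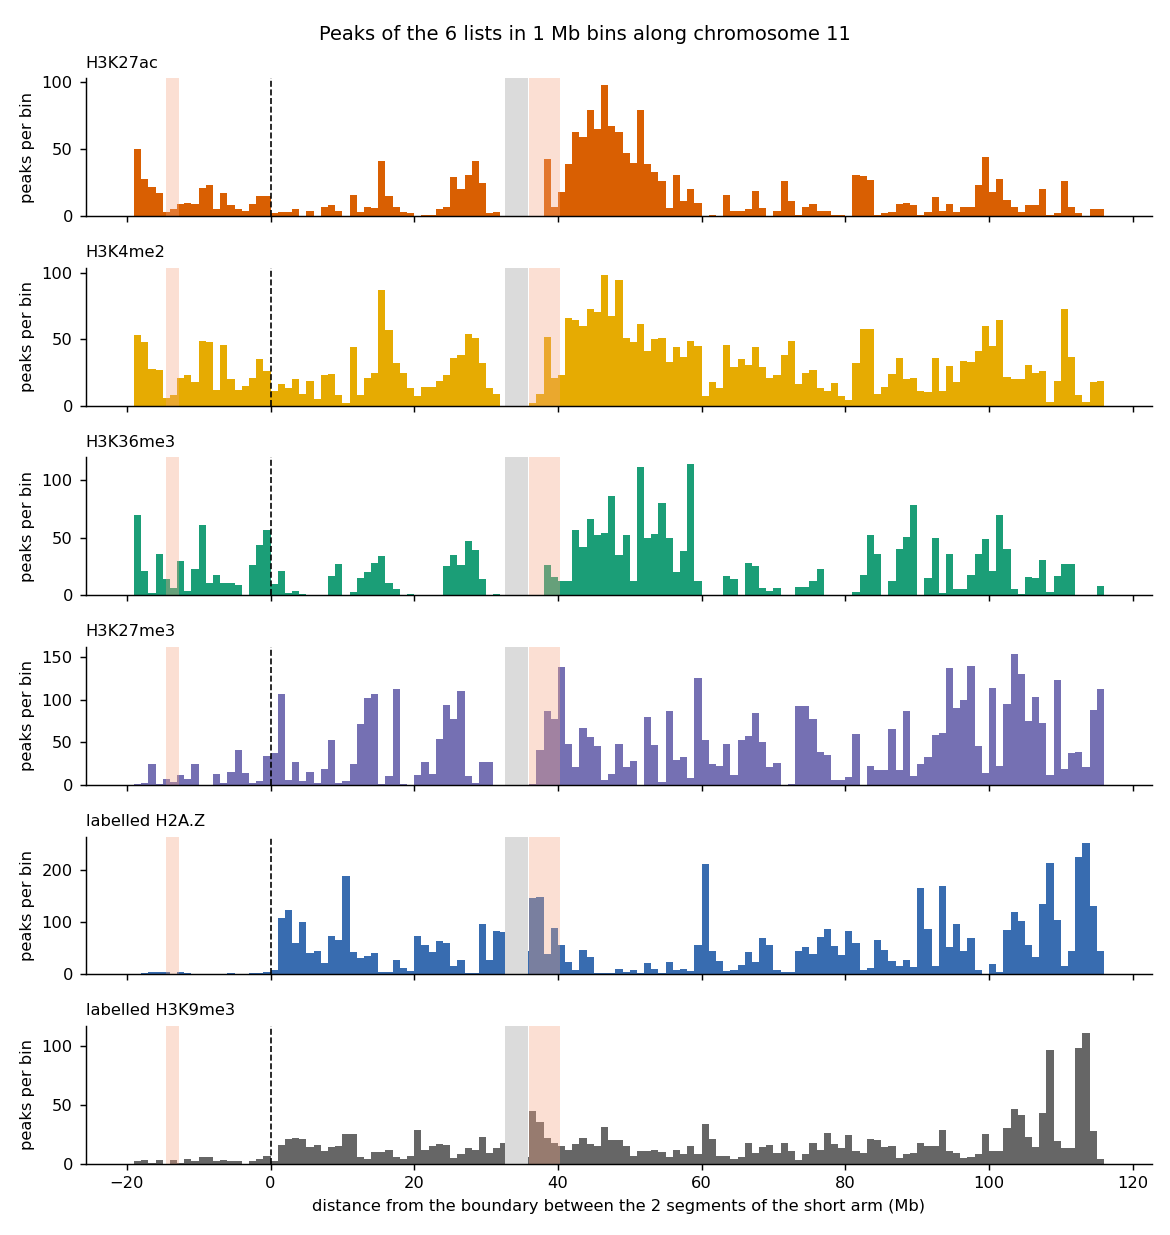
Peaks per 1 Mb bin (y axis, 1 panel per list) along chromosome 11, by distance in Mb from the boundary at 19 Mb (dashed line; the p arm's end is to the left, the grey block is the peak-free span at the centromere, and the tinted blocks are the olfactory receptor spans). Left of the dashed line no bin held more than 5 peaks labelled H2A.Z, while the highest bin to its right held 252.

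Compared with the rest of chromosome 11, the first 19 Mb of the p arm were almost empty of the list labelled H2A.Z. They were also poorer in H3K27me3 and in the list labelled H3K9me3, while the other 3 lists ran on at a similar density. The 19 bins there, read from the end of the arm inward, held 0, 3, 5, 4, 5, 0, 4, 2, 0, 0, 0, 1, 0, 3, 1, 0, 2, 3 and 5 peaks labelled H2A.Z. The 112 bins above 19 Mb held 0 to 252 with a median of 41. So the fullest bin below 19 Mb lay far under the median bin above it.

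In all, 38 labelled H2A.Z peaks lay below 19 Mb (2.0 per Mb, 1.42 to 2.75) and 6052 above (53.7 per Mb, 52.3 to 55.1), a ratio of 0.0373 (0.0263 to 0.0512). Against the other chromosomes the density was 0.115 times as high below 19 Mb and 3.08 times as high above it. The excess of chromosome 11 in this list lay above 19 Mb.

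H3K27me3 and the list labelled H3K9me3 were lower on the same side. H3K27me3 had 206 peaks below 19 Mb (10.8 per Mb) and 5273 above (46.8 per Mb), a ratio of 0.232 (0.201 to 0.266). Its bins held 0 to 41 peaks with a median of 7 below 19 Mb, against 0 to 154 with a median of 36 above. The list labelled H3K9me3 had 53 peaks below 19 Mb (2.79 per Mb) and 2010 above (17.8 per Mb), a ratio of 0.156 (0.117 to 0.205), with 0 to 7 peaks per bin (median 2) against 2 to 111 (median 14). For both, the ranges over bins overlapped between the segments. Against the other chromosomes, the density below 19 Mb was 0.485 times as high for H3K27me3 and 0.401 times for labelled H3K9me3. The median bin of the other chromosomes held 7 H3K27me3 and 5 labelled H3K9me3 peaks, so by median bin H3K27me3 was not low there. At most 41 H3K27me3 peaks were found in 80.3% of all 2729 bins, and at most 7 labelled H3K9me3 peaks in 63.3%.

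The lists of active chromatin did not share this pattern. H3K27ac had 275 peaks below 19 Mb (14.5 per Mb) and 1755 above (15.6 per Mb), a ratio of 0.930 (0.816 to 1.06) whose interval included 1. H3K4me2 had 27.2 per Mb below and 30.9 per Mb above, a ratio of 0.880 (0.800 to 0.965). H3K36me3 had 23.9 per Mb below and 21 per Mb above, a ratio of 1.14 (1.02 to 1.26). Median bins were likewise close, at 10 below and 7 above for H3K27ac, 23 and 25 for H3K4me2, and 18 and 14 for H3K36me3.

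Much of the part above 19 Mb is the long arm, so the first 19 Mb were also set against the rest of the p arm alone. There the ratio was 0.0389 (0.0274 to 0.0536) for the list labelled H2A.Z, 0.202 (0.149 to 0.268) for the list labelled H3K9me3 and 0.306 (0.263 to 0.355) for H3K27me3. The active lists were denser below 19 Mb than in the rest of the p arm. The ratios were 1.57 (1.33 to 1.85) for H3K27ac, 1.15 (1.02 to 1.28) for H3K4me2, which turned round, and 2.02 (1.76 to 2.32) for H3K36me3.

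**Figure D2:**
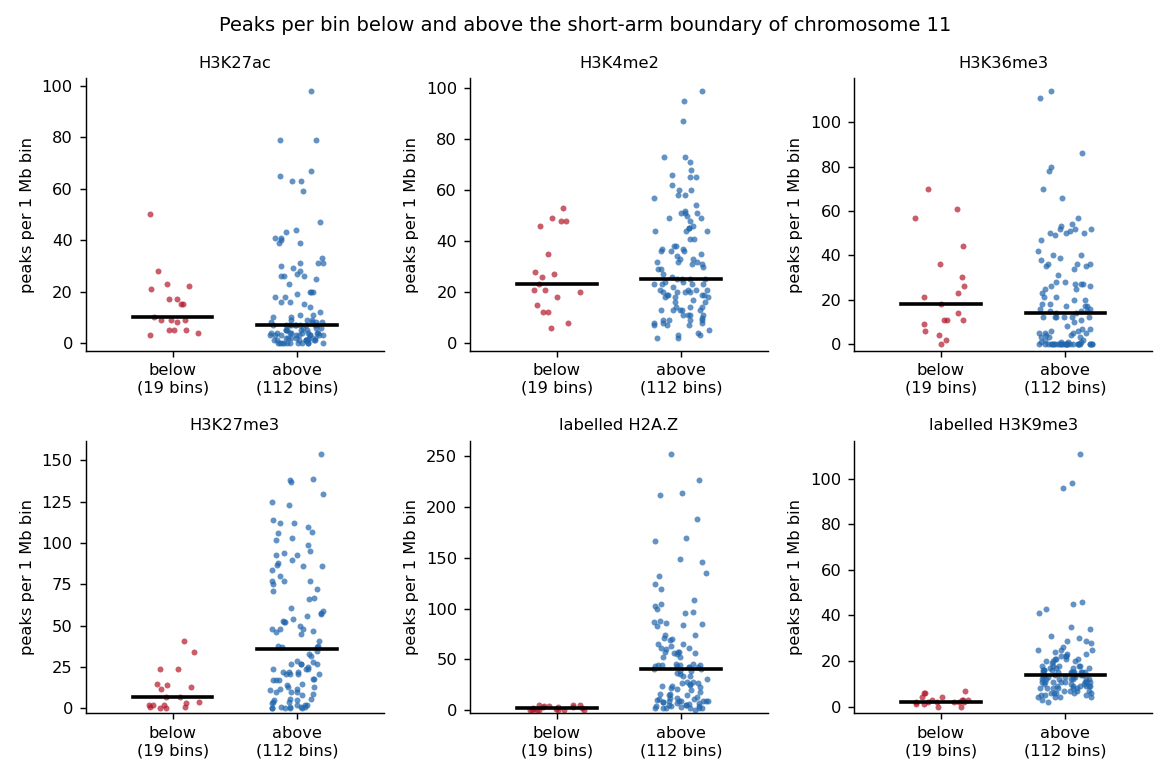
Peaks per 1 Mb bin (y axis) in the 19 bins below and the 112 bins above 19 Mb, 1 panel per list; points are bins, spread sideways at random, and the black line is the median. For the list labelled H2A.Z the bins below 19 Mb lie between 0 and 5 around a median of 2, against a median of 41 above; for H3K27ac the medians are 10 below and 7 above.

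The step was not at 19 Mb itself. In 200 kb windows the list labelled H2A.Z had 0 to 3 peaks in each window from 18 to 19.8 Mb, 5 in the window that ended at 20 Mb, then 10, 20, 6, 28 and 44 in the next 5. H3K27me3 reached 20, 48 and 28 peaks in the windows from 19.8 to 20.4 Mb. In 1 Mb bins it held 106 peaks from 20 to 21 Mb, then 5, 27, 4 and 15 in the bins up to 25 Mb. Labelled H2A.Z held 108, 124, 61, 100 and 41 in the same bins, so only the H3K27me3 rise did not last over them. The list labelled H3K9me3 had 4 or 5 peaks in 3 of the 4 windows from 20.2 to 21 Mb, against 0 to 2 in all but 1 of the earlier windows. Moving the boundary to 18 or 20 Mb left the ratios within their intervals.

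Bins with 5 or fewer labelled H2A.Z peaks were the common case elsewhere, at 54.5% of the 2729 bins of chromosomes 1 to 22 and X. The limit of 5 was taken from the fullest bin below 19 Mb on chromosome 11, so all 19 bins there met it by construction. Above 19 Mb 14 of 112 bins met it (12.5%). Unbroken stretches of 19 or more such bins occurred 16 times on 10 other chromosomes, the longest of 103 bins on chromosome 2. The empty start of chromosome 11 was therefore not particular to it, and the chromosome stood out by the part above 19 Mb.

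Bins poor in labelled H2A.Z on either side of 19 Mb differed in their other marks. The 14 poor bins above 19 Mb held 11 to 98 H3K27ac peaks with a median of 41, whereas the 19 bins below held 3 to 50 with a median of 10. Above 19 Mb the list labelled H2A.Z was fullest where H3K27ac was scarce. Its bins had a median of 64 peaks (6 to 252, 48 bins) where H3K27ac had 5 or fewer, 39 (4 to 135, 35 bins) where it had 6 to 20, and 9 (0 to 97, 29 bins) where it had more than 20.

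Below 19 Mb a slope of that size could not show, because no bin held more than 5 peaks labelled H2A.Z. The medians of labelled H2A.Z in the same 3 classes of bins were 1 (0 to 5, 5 bins), 3 (0 to 5, 9 bins) and 0 (0 to 5, 5 bins). The rank correlation over bins between these lists was -0.04 below 19 Mb (19 bins), -0.63 above (112 bins) and -0.08 on the other chromosomes (2598 bins). For labelled H2A.Z with H3K4me2 it was -0.12 below, -0.73 above and 0.03 elsewhere. These are descriptions of neighbouring bins of the same libraries, which are not independent. The values below 19 Mb rest on counts of 0 to 5 and do not tell whether the relation differs there.

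Above 19 Mb the lists labelled H2A.Z and H3K9me3 tended to be full in the same bins, with exceptions. Their rank correlation was 0.51 above 19 Mb and 0.54 on the other chromosomes, but -0.15 below 19 Mb, where both were sparse. The bin from 65 to 66 Mb held 31 peaks labelled H3K9me3 and 2 labelled H2A.Z, and that from 118 to 119 Mb held 25 and 0. Labelled H2A.Z with H3K27me3 had 0.34 below, 0.30 above and 0.68 elsewhere. H3K27ac and H3K4me2 kept together everywhere, at 0.96 below, 0.91 above and 0.89 elsewhere.

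**Figure D3:**
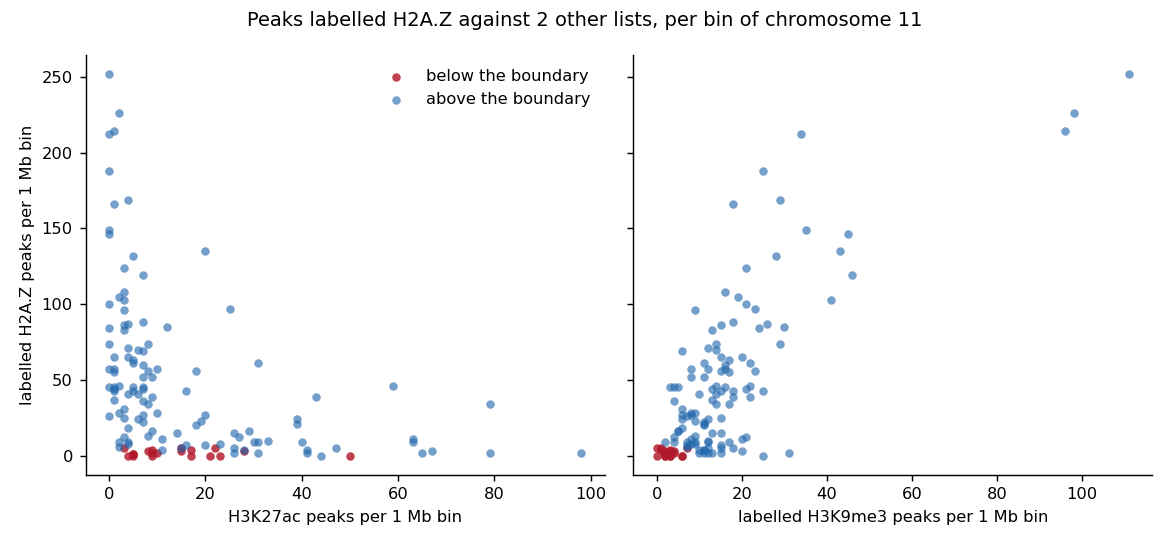
Labelled H2A.Z peaks per 1 Mb bin (y axis) against H3K27ac peaks (left, x axis) and labelled H3K9me3 peaks (right, x axis) in the same bin; each point is a bin of chromosome 11, red below and blue above 19 Mb. The blue bins run from many labelled H2A.Z peaks with few H3K27ac peaks to the reverse, and 3 bins with 214 to 252 labelled H2A.Z peaks also hold 96 to 111 labelled H3K9me3 peaks.

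For H3K27me3 and the lists labelled H2A.Z and H3K9me3, peak widths differed less between the segments than densities did. Each of them had a median of 501 bp on both sides of 19 Mb, which is the commonest single width. Peaks wider than 1 kb made up 8.25% of H3K27me3 below 19 Mb (17 peaks, 5.22 to 12.8%) and 14.8% above (13.9 to 15.8%). For the list labelled H2A.Z 2 of 38 were wider than 1 kb below (5.26%, 1.46 to 17.3%) and 11.2% above (10.4 to 12%), and the intervals overlapped.

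For H3K27ac and H3K36me3 the wide peaks were the more frequent below 19 Mb. They made up 36% of H3K27ac (30.6 to 41.8%) against 27.6% above (25.5 to 29.7%), and 42.7% of H3K36me3 (38.3 to 47.3%) against 33.5% above (31.6 to 35.4%). H3K4me2 went the other way, with 16.1% below (13.2 to 19.5%) and 22.3% above (20.9 to 23.7%). Counted in covered length per Mb instead of peaks, H3K27ac was 1.17 times as dense below 19 Mb as above, so its direction depended on this choice.

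Peaks of the sparse lists lay further apart below 19 Mb, as a lower density entails. The median distance from a labelled H2A.Z peak to the next was 252 kb below 19 Mb, 5.49 kb in the rest of the p arm and 4.65 kb on the q arm. For the list labelled H3K9me3 it was 262, 42.0 and 21.4 kb over the same segments. For H3K27me3 it was 12.2, 4.52 and 4.08 kb, so its peaks below 19 Mb were fewer but still grouped. Below 19 Mb the next peak was within 5 kb for 31.7% of H3K27me3, 8.11% of labelled H2A.Z and 0% of labelled H3K9me3 distances. The longest stretches without a labelled H2A.Z peak on the chromosome all lay in this part: chr11:7966468-11212709 (3246 kb), chr11:14176147-16269672 (2094 kb) and chr11:11213211-13027545 (1814 kb), the first of which enclosed the longest stretch without H3K27me3, chr11:8587410-11100531 (2513 kb).

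Overlaps between lists were also compared on either side of 19 Mb. Of the H3K27me3 peaks, 4 of 206 below 19 Mb (1.94%, 0.758 to 4.89%) and 832 of 5273 above (15.8%, 14.8 to 16.8%) overlapped a peak labelled H2A.Z, against 11.8% over chromosomes 1 to 22 and X. The list labelled H2A.Z covered 0.116% of the sequence below and 3.66% above, so there was less of it to meet. Seen from the other list, 4 of 38 labelled H2A.Z peaks below 19 Mb (10.5%, 4.17 to 24.1%) and 853 of 6052 above (14.1%, 13.2 to 15.0%) lay on H3K27me3, and the intervals overlapped.

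In the list labelled H3K9me3 the share of peaks on H3K27ac was higher below 19 Mb, while the number of such peaks per Mb was lower. Below 19 Mb 28 of its 53 peaks overlapped H3K27ac (52.8%, 39.7 to 65.6%), against 329 of 2010 above (16.4%, 14.8 to 18%) and 30.4% over chromosomes 1 to 22 and X. That was 1.47 such peaks per Mb below (0.979 to 2.13) and 2.92 above (2.61 to 3.25). Peaks of this list away from H3K27ac numbered 1.32 per Mb below and 14.9 above.

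With H3K4me2 the shares were 47.2% below 19 Mb (34.4 to 60.3%) and 21.8% above (20.1 to 23.7%), against 35.3% over those chromosomes, and the overlapping peaks numbered 1.32 per Mb below and 3.89 above. No labelled H3K9me3 peak of 53 below 19 Mb met a peak labelled H2A.Z, which allows a share of up to 6.76% (upper Wilson limit), whereas 336 of 2010 above did (16.7%, 15.1 to 18.4%), against 7.33%. Labelled H2A.Z covered 0.116% of the sequence below 19 Mb and 3.66% above, so no change of partner can be read from this difference.

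Over the chromosome, the list labelled H3K9me3 lay less often on the active lists, and more often on labelled H2A.Z or H3K27me3, than over chromosomes 1 to 22 and X. Of 2063 peaks 609 overlapped H3K27ac or H3K4me2 (29.5%, 27.6 to 31.5%, against 47.7%) and 416 overlapped labelled H2A.Z or H3K27me3 (20.2%, 18.5 to 22%, against 10.1%). Another 1051 did neither (50.9%, 48.8 to 53.1%, against 42.7%). Both kinds of partner were met by 13 peaks (0.630%, 0.369 to 1.08%), against 0.474%. The median width was 634 bp on the active lists and 501 bp on labelled H2A.Z or H3K27me3.

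**Figure D4:**
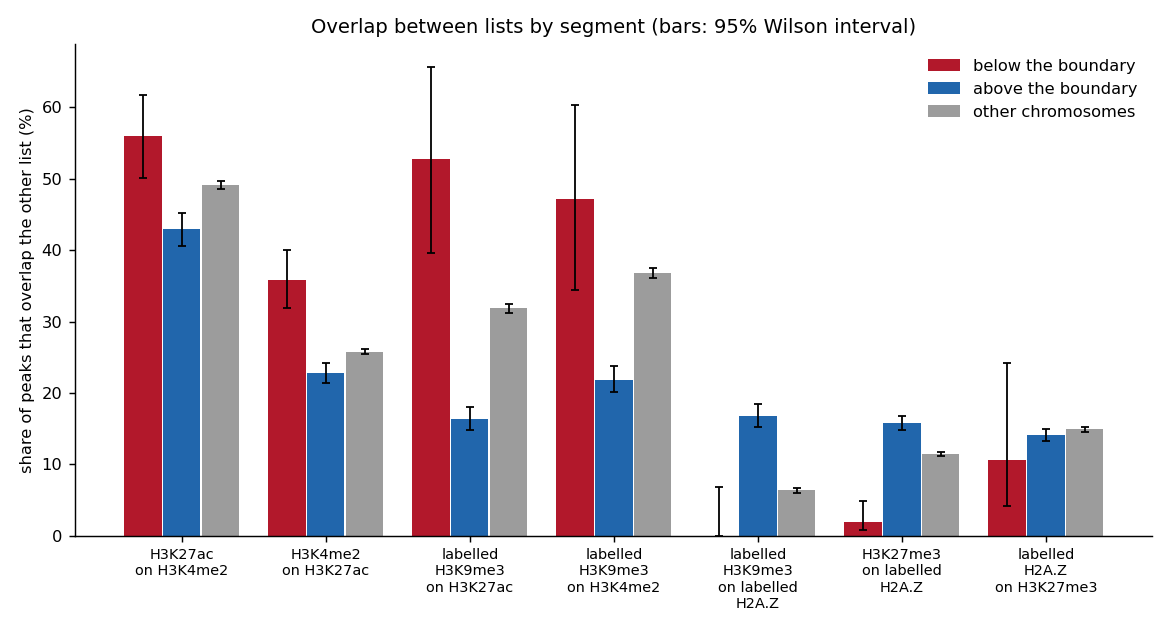
Share of the peaks of 1 list that overlap a peak of another by at least 1 bp (y axis, %), for 7 ordered pairs of lists (x axis), below 19 Mb, above it and on the other chromosomes; error bars are 95% Wilson intervals. Labelled H3K9me3 peaks lie on H3K27ac for 52.8% below 19 Mb and 16.4% above, and on labelled H2A.Z for 0% below and 16.7% above.

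H3K27ac peaks lay on H3K4me2 for 154 of 275 below 19 Mb (56%, 50.1 to 61.7%) and 753 of 1755 above (42.9%, 40.6 to 45.2%), against 48.8% over chromosomes 1 to 22 and X. With peaks wider than the median the shares were 53.9% below and 51.6% above, so the size of this difference depended on the widths taken. In reverse, 35.9% of H3K4me2 peaks below 19 Mb (31.8 to 40.1%) and 22.8% above (21.5 to 24.2%) lay on H3K27ac, against 25.7%. H3K27me3 and H3K36me3, marks of silent and of transcribed genes, did not meet on the chromosome in any of 5479 H3K27me3 peaks (upper limit 0.0701%), against 0.00620% over chromosomes 1 to 22 and X.

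The longest overlaps of H3K27me3 with labelled H2A.Z were chr11:75393418-75397165 (3.75 kb), chr11:45649420-45652842 (3.42 kb), which lay in the widest H3K27me3 peak of the chromosome, and chr11:63097589-63100007 (2.42 kb), inside a labelled H2A.Z peak of 5.43 kb at chr11:63097589-63103014. The longest of H3K27ac with H3K4me2 was chr11:60924831-60930729 (5.90 kb), and that of labelled H3K9me3 with H3K27ac was chr11:130183852-130185829 (1.98 kb). That of labelled H3K9me3 with labelled H2A.Z was only 0.910 kb, at chr11:123851040-123851949.

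Between the arms, the p arm had fewer peaks per Mb than the q arm in all 6 lists. The p arm was taken from its end to base 51582772 and the q arm from base 54794148 to 134939900, on either side of the longest peak-free span. H3K27me3 had 26.4 peaks per Mb on the p arm and 51.4 on the q arm, a ratio of 0.513 (0.482 to 0.546). Labelled H3K9me3 stood at 9.77 on the p arm and 19.5 on the q arm, a ratio of 0.502 (0.453 to 0.556). The list labelled H2A.Z had 33.2 on the p arm and 54.6 on the q arm, a ratio of 0.609 (0.575 to 0.644).

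The active lists differed in the same direction. The ratios of the p arm over the q arm were 0.616 (0.558 to 0.678) for H3K27ac, 0.739 (0.691 to 0.790) for H3K4me2 and 0.657 (0.606 to 0.713) for H3K36me3. Leaving out the first 19 Mb brought the p arm close to the q arm for the list labelled H2A.Z only, at 0.942 (0.890 to 0.997). H3K27me3 came to 0.689 (0.645 to 0.736) and the list labelled H3K9me3 to 0.712 (0.639 to 0.791), while H3K27ac moved away to 0.509 (0.448 to 0.577) and H3K36me3 to 0.478 (0.428 to 0.533).

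Overlaps by arm differed for some pairs of lists. H3K27me3 lay on labelled H2A.Z for 12.6% on the p arm (10.9 to 14.4%) and 16.1% on the q arm (15.1 to 17.3%). H3K27ac lay on H3K4me2 for 50.5% on the p arm (46.4 to 54.6%) and 42.4% on the q arm (39.8 to 44.9%). H3K27ac lay on H3K36me3 for 11.6% on the p arm (9.26 to 14.5%) and 20.2% on the q arm (18.2 to 22.4%). For each of these pairs the intervals were apart. Labelled H3K9me3 lay on H3K27ac for 15.9% on the p arm (12.9 to 19.3%) and 17.8% on the q arm (16.0 to 19.7%), and these intervals overlapped.

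Beside the centromere, in the last 1 Mb of the p arm and the start of the q arm up to 55 Mb (1.21 Mb together), the list labelled H2A.Z had 147 peaks (122 per Mb, 103 to 143), beside 26 labelled H3K9me3. There were 0 peaks of H3K27ac and H3K27me3 and 1 each of H3K4me2 and H3K36me3. The labelled H2A.Z peaks there were wide, with a median of 666 bp and 36.7% over 1 kb (29.4 to 44.8%), against 11.1% over the whole chromosome. The second widest labelled H2A.Z peak of the chromosome, 5.53 kb at chr11:54846519-54852046, lay there and overlapped a peak labelled H3K9me3.

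A bin was called rich in a list when it held at least as many peaks as the 90th percentile of that list over all 2729 bins, which was 56 peaks for the list labelled H2A.Z and 71 for H3K27me3. Rich in labelled H2A.Z were 41 of the 131 bins of chromosome 11 (31.3%, 24.0 to 39.7%), against 10.1% of all bins. Rich in H3K27me3 were 33 (25.2%, 18.5 to 33.3%), against 10.0%. None of either lay in the 19 bins below 19 Mb. On the arms, 13 of 51 bins of the p arm and 28 of 80 of the q arm were rich in labelled H2A.Z, and 8 of 51 and 25 of 80 in H3K27me3.

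Runs of at least 3 rich bins took up 17 of the 41 labelled H2A.Z bins in 5 runs, at 20 to 24 Mb (393 peaks), 27 to 30 Mb (327), 121 to 125 Mb (363), 126 to 129 Mb (454) and 131 to 134 Mb (610). The last was the fullest, with a mean of 203 labelled H2A.Z and 79.0 labelled H3K9me3 peaks per bin, 2.33 H3K27ac peaks and 0 H3K36me3 peaks. It held the widest labelled H2A.Z peak of the chromosome, 6.67 kb at chr11:131870905-131877577, which overlapped no other list. The longest run on another chromosome was 6 bins, so the runs of chromosome 11 were not longer than those elsewhere.

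The 6 H3K27me3 runs lay at 31 to 34 Mb (280 peaks), 43 to 46 Mb (281), 57 to 60 Mb (301), 92 to 95 Mb (263), 113 to 117 Mb (465) and 121 to 127 Mb (629), 22 bins in all. The run of 6 bins at 121 to 127 Mb equalled the longest elsewhere. It held the fullest bin, 122 to 123 Mb with 154 peaks, and the third widest H3K27me3 peak, 7.85 kb at chr11:123188030-123195874. The widest, 10.99 kb at chr11:45646459-45657451, lay in the run at 43 to 46 Mb. All 3 of the widest overlapped a peak labelled H2A.Z, against 15.3% of all 5479 H3K27me3 peaks of the chromosome. They were picked for their width, and a wide peak has more room to meet another list, so no link with width is read from them.

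The runs of the 2 lists met at 121 to 125 Mb and at 126 to 127 Mb, and at no other place. Both lists were rich in 14 bins. These were 34.1% of the labelled H2A.Z bins, where 25.2% of the chromosome's bins were rich in H3K27me3. They were 42.4% of the H3K27me3 bins, where 31.3% were rich in labelled H2A.Z. These base shares count the 19 bins below 19 Mb, which were rich in neither list. Above 19 Mb, 33 of 112 bins were rich in H3K27me3 and 41 of 112 in labelled H2A.Z, so no excess of sharing is read from the 14 bins. The 3 fullest labelled H2A.Z bins were not rich in H3K27me3, with 38 and 21 peaks at 131 to 133 Mb and 12 at 127 to 128 Mb, against a median of 36 above 19 Mb. Other full bins held more, with 52 H3K27me3 beside 212 labelled H2A.Z peaks at 79 to 80 Mb, and 88 beside 132 at 133 to 134 Mb. More labelled H2A.Z bins were shared with the list labelled H3K9me3. There 29 bins were rich in both, 70.7% of the labelled H2A.Z bins and 64.4% of the 45 bins rich in labelled H3K9me3 (34.4% of the chromosome's bins, against 11.6% of all bins). The same 3 bins, 132 to 133, 131 to 132 and 127 to 128 Mb, were the fullest of both lists, with 252, 226 and 214 peaks labelled H2A.Z and 111, 98 and 96 labelled H3K9me3.

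Rich bins of the active lists lay elsewhere. Of the 41 bins rich in labelled H2A.Z, 1 was rich in H3K27ac, 0 in H3K4me2 and 0 in H3K36me3. H3K27ac had 21 rich bins (16.0%, against 10.2% of all bins), of which 13 formed a single run at 60 to 73 Mb with 771 of the chromosome's 2030 peaks, and the longest run elsewhere was 8 bins. H3K4me2 had 23 rich bins (17.6%, against 10.3%), with a run of 9 at 60 to 69 Mb where the longest elsewhere was 7. H3K36me3 had 17 (13.0%, against 10.3%) and a run of 4 at 63 to 67 Mb. The fullest bin of H3K27ac and of H3K4me2 was 65 to 66 Mb, with 98 and 99 peaks, and that of H3K36me3 was 77 to 78 Mb, with 114.

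The other extreme of H3K36me3 was its longest stretches with no peak, chr11:95620858-100964071 (5343 kb), chr11:38246257-43364676 (5118 kb) and chr11:78280092-82548920 (4269 kb). The bins from 96 to 100 Mb held 37 to 87 labelled H2A.Z peaks, and those from 39 to 43 Mb held 43 to 74, beside 6 in the bin from 38 to 39 Mb, where the second stretch began. In the third stretch the bins from 79 to 82 Mb held 212, 44 and 26. Bins with no H3K36me3 peak varied widely in labelled H2A.Z. The 27 such bins above 19 Mb held 4 to 252 with a median of 55, whereas the 85 bins there with an H3K36me3 peak held 0 to 214 with a median of 34, and the 1 such bin below 19 Mb held 0.

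The short-arm olfactory span, 4.4 to 6.2 Mb, was poor in every list, with 48 peaks in all. It held 7 peaks of H3K27ac, 11 of H3K4me2, 10 of H3K36me3, 12 of H3K27me3, 5 labelled H2A.Z and 3 labelled H3K9me3. Against the chromosome outside both spans, the density ratio was 0.248 (0.0997 to 0.513) for H3K27ac, 0.197 (0.0983 to 0.353) for H3K4me2, 0.252 (0.121 to 0.463) for H3K36me3, 0.161 (0.0830 to 0.281) for H3K27me3, 0.0619 (0.0201 to 0.145) for labelled H2A.Z and 0.108 (0.0223 to 0.317) for labelled H3K9me3. Its core from 5 to 5.6 Mb held 1 peak of H3K27me3, 1 labelled H3K9me3 and none of the other lists.

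Against its own neighbourhood below 19 Mb, the intervals of the ratios stayed under 1 for the active lists only. The ratios to the rest of the first 19 Mb were 0.250 (0.0994 to 0.521) for H3K27ac, 0.208 (0.103 to 0.376) for H3K4me2 and 0.215 (0.102 to 0.400) for H3K36me3. They were 0.591 (0.300 to 1.06) for H3K27me3, 1.45 (0.441 to 3.73) for labelled H2A.Z and 0.573 (0.114 to 1.77) for labelled H3K9me3, with 1 inside each interval. The longest stretch of the chromosome without H3K4me2, chr11:4630096-5621707 (992 kb), lay in this span. Its widest peaks were of H3K36me3, 3.08 kb at chr11:4619619-4622698, and of H3K27ac, 2.85 kb at chr11:5641194-5644043.

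The long-arm olfactory span was not poor in peaks. It held 1016, led by 446 labelled H2A.Z (104 per Mb, 94.3 to 114) and 259 H3K27me3 (60.2 per Mb, 53.1 to 68.0). Against the chromosome outside both spans the ratios were 2.31 (2.09 to 2.55) for labelled H2A.Z, 1.89 (1.56 to 2.26) for labelled H3K9me3 and 1.45 (1.28 to 1.65) for H3K27me3. They were 0.832 (0.626 to 1.08) for H3K27ac, 0.660 (0.528 to 0.815) for H3K4me2 and 0.442 (0.318 to 0.600) for H3K36me3. Against the rest above 19 Mb alone, labelled H2A.Z was 2.01 times as dense (1.82 to 2.21).

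**Figure D5:**
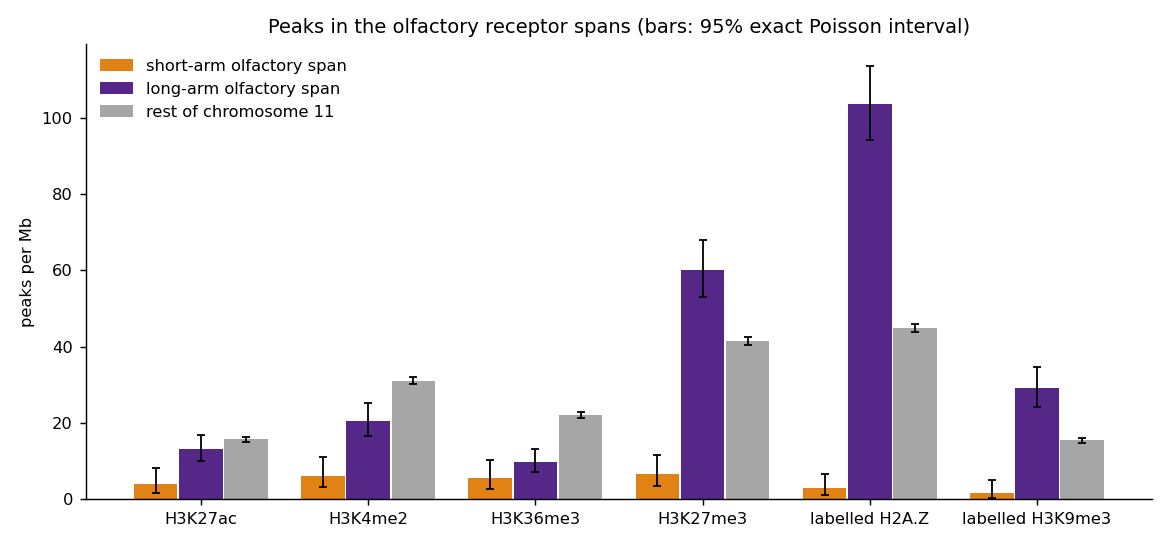
Peaks per Mb (y axis) of each list (x axis) in the short-arm olfactory span, the long-arm olfactory span and the rest of chromosome 11; error bars are 95% exact Poisson intervals. Labelled H2A.Z reaches 104 peaks per Mb in the long-arm span and 2.78 in the short-arm span, against 44.9 in the rest.

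The long-arm span was not uniform. Its first 2 bins, 55 to 57 Mb, held 146 and 149 labelled H2A.Z and 45 and 35 labelled H3K9me3 peaks, with 0 of H3K27ac and of H3K36me3 in both and 2 and 9 of H3K4me2. The bin from 57 to 58 Mb held 43 H3K27ac, 52 H3K4me2, 26 H3K36me3 and 86 H3K27me3 peaks, against 39 labelled H2A.Z. From 58 to 59 Mb there were 88 labelled H2A.Z and 77 H3K27me3 peaks, with 7 of H3K27ac. So a bin rich in H3K27ac and H3K4me2 lay inside the span, and 43 of the span's 56 H3K27ac peaks came from that bin.

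In 100 kb windows, a labelled H2A.Z peak was found in 37 of the 43 windows of the long-arm span and 4 of the 18 of the short-arm span. The list labelled H3K9me3 was found in 39 of 43 and 3 of 18, and H3K27ac in 12 of 43 and 5 of 18.

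Overlaps in the long-arm span were set against the rest above 19 Mb for all 30 ordered pairs of lists, and the intervals were apart for 6. Of its 446 labelled H2A.Z peaks, 38 lay on H3K27me3 (8.52%, 6.27 to 11.5%), against 14.5% (13.6 to 15.5%) in the rest above 19 Mb and 14.8% over chromosomes 1 to 22 and X, although H3K27me3 covered 4.37% of the span and 3.47% of the rest. Seen from H3K27me3, 38 of 259 peaks lay on labelled H2A.Z (14.7%, 10.9 to 19.5%), against 15.8% (14.9 to 16.9%), and the intervals overlapped. They also overlapped for the 125 labelled H3K9me3 peaks, of which 28 lay on labelled H2A.Z (22.4%, 16.0 to 30.5%), against 16.3% (14.7 to 18.1%).

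H3K27ac and H3K4me2 met H3K36me3 in larger shares in the long-arm span. Of 56 H3K27ac peaks 19 lay on H3K36me3 (33.9%, 22.9 to 47%), against 18% (16.3 to 19.9%) in the rest above 19 Mb and 12.9% over chromosomes 1 to 22 and X. Of 42 H3K36me3 peaks 13 lay on H3K27ac (31.0%, 19.1 to 46%), against 10.7% (9.5 to 12%) in the rest and 6.61% over those chromosomes. H3K36me3 on H3K4me2 and the reverse went the same way, at 21.4% and 11.4% in the span, against 6.82% and 4.98% in the rest and 4.86% and 4.09% over those chromosomes. These pairs count the same overlaps from either side. The bin from 57 to 58 Mb held 43 of the 56 H3K27ac and 26 of the 42 H3K36me3 peaks, so they are largely neighbours and not independent. Peaks over 5 kb made up 23.8% of H3K36me3 in the span and 9.40% in the rest above 19 Mb. Whether width accounts for the larger shares was not tested. The sixth pair rested on 1 H3K36me3 peak that met labelled H2A.Z.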

How the data were processed

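Peak lists of 6 ChIP-seq libraries from T-47D cells were analysed, with 1 library per mark, and the input library was not analysed here. Each deposited list gives, per the file contents, 4 columns with chromosome, start, end and name, and other values such as a score, height or p-value are not in the columns used. The tools named are HOMER 4.2 and Bowtie2 2.1.0, with hg19 and GRCh37 as builds, per the submitters' processing notes, which give no roles. For peak calling settings, use of the input and read depth, the entry is: not given in the sources used here. No correction for copy number was made.

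Peaks on chromosomes 1 to 22 and X were kept, 285703 of 286998. Coordinates are printed 1-based. A peak was assigned to a bin or segment by its midpoint. The analysed span ran from the first base of a chromosome to its last peak end, less peak-free spans of at least 1 Mb (131.729 Mb on chromosome 11). Bins with at least 90% of their length in it were used. Overlap meant at least 1 shared bp, and rich bins were those at or above the 90th percentile.

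The members, segments and classes were chosen with earlier results of these data known. Named regions are the 3 fullest bins, widest peaks, longest peak-free stretches and longest overlaps of each list or pair, given where they lie in a segment discussed. The interval, overlap and binning steps were tested on simulated data. Planned gene lists were not used, since an annotation of hg19 was not used here. Alternatives were other boundaries, merged peaks, wider peaks, covered length, a stricter overlap and percentile. Python 3.11.15, numpy 2.4.6, pandas 2.3.3, scipy 1.17.1 and matplotlib 3.10.9 were used.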

Additional observations from a re-analysis of the deposited data

How the results depend on the processing

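No paired analysis was possible because each mark had 1 library. Of 138 alternative values for 34 results, 100 stayed close to the reported value (inside its interval, for ratios and shares), 36 moved and 2 reversed a ratio whose interval excluded 1. The first was H3K4me2 below 19 Mb, denser than the rest of the p arm alone (1.15). The other was labelled H2A.Z in the span from 4.4 to 6.2 Mb, set against the rest below 19 Mb (1.45). That ratio rested on 5 peaks in the span and its interval (0.441 to 3.73) included 1, so no direction is read from it. H3K27ac below over above 19 Mb, at 0.930 with 1 inside its interval, also crossed 1, with wider peaks (1.05), with covered length and against the p arm alone. Boundaries at 18 or 20 Mb, merging within 1 kb and leaving out the olfactory spans moved no result they were applied to. The causes of the moves were not tested.

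For the density below over above 19 Mb, covered length gave 1.17 for H3K27ac and 0.762 for H3K4me2. Against the p arm alone the ratios were 1.57 for H3K27ac, 2.02 for H3K36me3 and 0.306 for H3K27me3. Peaks wider than the median gave 1.39 for H3K36me3, 0.183 for H3K27me3, 0.0221 for labelled H2A.Z and 0.252 for labelled H3K9me3.

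For the p arm over the q arm, leaving out the first 19 Mb gave 0.509 for H3K27ac, 0.478 for H3K36me3, 0.689 for H3K27me3, 0.942 for labelled H2A.Z and 0.712 for labelled H3K9me3. Wider peaks gave 0.676 for H3K4me2, 0.727 for H3K36me3 and 0.416 for labelled H3K9me3, and covered length gave 0.636 for H3K4me2 and 0.718 for H3K36me3.

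In the span from 4.4 to 6.2 Mb, covered length gave 0.114 for H3K36me3 and wider peaks gave 0 for labelled H2A.Z. Against the rest below 19 Mb the ratios were 0.591 for H3K27me3 and 0.573 for labelled H3K9me3. In the long-arm span, covered length gave 0.850 for H3K36me3, and labelled H2A.Z was at 2.01 against the rest above 19 Mb. At the 95th percentile 19 bins were rich in labelled H2A.Z and 16 in H3K27me3.

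Where the overlap had to reach 50% of the shorter peak, H3K27me3 on labelled H2A.Z above 19 Mb came to 12.2%, H3K27ac on H3K4me2 to 46.5% below and 39.3% above, and labelled H3K9me3 above 19 Mb to 14.7% on H3K27ac and 11.8% on labelled H2A.Z. With wider peaks, the shares above 19 Mb were 8.70% for H3K27me3 on labelled H2A.Z, 51.6% for H3K27ac on H3K4me2, and 30.2% and 7.83% for labelled H3K9me3 on H3K27ac and on labelled H2A.Z. Below 19 Mb, wider peaks gave 53.9% for H3K27ac on H3K4me2, close to that above. Signal below the threshold of the deposited lists cannot be seen, and the depth is unknown.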
